A study of Mus musculus with 45 samples.

Results

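Macrophages at the centre of erythroblastic islands were followed through 9 of their genes in sorted blood cells of the fetal mouse liver. The 9 genes are C1qa, C1qb, C1qc, Vcam1, Axl, Mrc1, Cd5l, Adgre1 and Timd4. They were taken by symbol from the deposited table of 13449 genes, and all 9 were present. They were taken with earlier results of these libraries known. Fetal livers were collected at E15.5 from VavCre dams crossed with sires carrying floxed Rpl5 or floxed Rps19 on both chromosomes, so every embryo carried 1 floxed allele. The 4 genotypes were VavCre Rpl5flox/+, its control Rpl5flox/+, VavCre Rps19flox/+ and its control Rps19flox/+. VavCre drives Cre in blood cells, a lineage that includes macrophages and not hepatocytes. All homogenates were exposed to emetine, which holds ribosomes on mRNA, at 25 µg/mL for 15 min. Ter119+ erythroblasts were taken with magnetic beads from the cells left after c-Kit+ progenitors had been removed, and cells of 1 genotype were pooled before lysis. Polysomes were parted from free cytoplasmic mRNA on sucrose gradients, and poly(A) RNA of both fractions was sequenced.

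In the fetal liver, erythroblasts divide and shed their nuclei while attached to a central macrophage. The macrophage holds them through Vcam1, which binds the integrin pair Itga4 and Itgb1 on the erythroblast, and it engulfs and digests the expelled nuclei after its receptors bind exposed phosphatidylserine. A magnetic sort on an erythroblast antigen can carry macrophages along, since the contact between the cells is tight. C1qa, C1qb and C1qc encode the chains of C1q, a complement opsonin made mainly by macrophages. Axl is a receptor kinase that binds phosphatidylserine through Gas6, and Timd4 binds it directly. Cd5l is a secreted scavenger-receptor protein of tissue macrophages, Mrc1 is the mannose receptor, and Adgre1 is the adhesion receptor most used as a macrophage surface marker. Vcam1 and Mrc1 are also made by endothelial cells of the liver, so neither marks a macrophage alone.

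The C1q genes lie side by side on chromosome 4 in the GRCm38.p6 annotation of RefSeq, with C1qb at chr4:136880126-136886200, C1qc at chr4:136889801-136892936 and C1qa at chr4:136895916-136898844. Vcam1 lies at chr3:116110020-116129688, Axl at chr7:25756500-25788924, Mrc1 at chr2:14229414-14332023, Cd5l at chr3:87357881-87371074, Adgre1 at chr17:57358581-57483529 and Timd4 at chr11:46810786-46844333. All 9 are protein-coding. The interval of Mrc1 overlaps that of Mir511, and the interval of Adgre1 overlaps those of Gm18069 and Gm20243, so reads of those pairs may not be fully separable.

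Promoter sequences were found in RefSeq for 6 of the 9 genes: C1qb, C1qc, Axl, Mrc1, Cd5l and Timd4. Those of C1qb, C1qc and Cd5l are shown because C1qb and C1qc fell together in VavCre Rps19flox/+ Ter119+ cells and Cd5l was the only gene of the 8 tested that passed the test as higher in VavCre Rps19flox/+ Kit+ cytoplasm. Cd5l did so in 8 of 12 fits with a library removed. Each runs 5′ to 3′ on the strand of its gene, from 250 bases before to 50 bases after the start. Capitals mark the core GAGGAA of PU.1 (Spi1), a transcription factor of macrophages and granulocytes, and the site TGCTGA of MAF factors, or the reverse complement of either (TTCCTC and TCAGCA).
C1qb, minus strand, chr4:136886151-136886450: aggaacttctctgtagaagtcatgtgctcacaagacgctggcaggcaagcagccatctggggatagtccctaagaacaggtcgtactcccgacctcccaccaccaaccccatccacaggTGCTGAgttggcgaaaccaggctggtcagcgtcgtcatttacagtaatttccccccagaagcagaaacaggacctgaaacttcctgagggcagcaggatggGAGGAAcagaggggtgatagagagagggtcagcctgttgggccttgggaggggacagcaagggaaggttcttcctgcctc
C1qc, minus strand, chr4:136892865-136893164: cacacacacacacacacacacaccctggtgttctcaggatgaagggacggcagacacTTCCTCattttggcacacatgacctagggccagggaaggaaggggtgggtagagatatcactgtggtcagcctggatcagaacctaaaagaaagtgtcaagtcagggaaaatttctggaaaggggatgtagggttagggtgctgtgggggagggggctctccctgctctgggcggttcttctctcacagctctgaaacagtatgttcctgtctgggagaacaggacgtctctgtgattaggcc
Cd5l, plus strand, chr3:87357631-87357930: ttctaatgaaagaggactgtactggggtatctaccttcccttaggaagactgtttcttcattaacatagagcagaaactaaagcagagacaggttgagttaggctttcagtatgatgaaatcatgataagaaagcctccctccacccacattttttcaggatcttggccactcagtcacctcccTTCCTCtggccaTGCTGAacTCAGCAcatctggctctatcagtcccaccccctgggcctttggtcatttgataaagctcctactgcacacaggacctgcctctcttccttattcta
In C1qb the MAF site began at position -131 and the PU.1 core at position -30 from the start. In C1qc the only capitals were a PU.1 core on the other strand, at position -193. Cd5l held a PU.1 core on the other strand at position -66, followed by a MAF site on each strand. Counting both strands, GAGGAA was present in 5 of the 6 promoters against 28.3% of 32851 promoters of the same length, and TGCTGA in 3 of 6 against 19.5%. The GATA core AGATAA, a site of erythroid factors, was present in 0 of 6 against 11.2%. Other forms of the GATA site were not counted, and the form TGATAA can be read in the Cd5l promoter above. The GC box GGGNGG was present in 6 of 6 against 68.6%, and it overlapped the PU.1 core in C1qb and Axl. These are matches of letters in a short window, and no binding was measured.

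The series held 45 libraries in 16 groups: 24 of cytoplasm and 21 of polysomes. Of the 16 groups, 14 had 3 libraries. The cytoplasm libraries held 22.9 to 70.1 M reads (M, mega) in Kit+ cells and 45.0 to 123.5 M in Ter119+ cells. The polysome libraries held 1.01 to 37.6 M reads in Kit+ cells and 1.02 to 39.8 M in Ter119+ cells, and 4 of them in all lay under 2 M reads. Values below are normalized counts, that is, reads divided by the size factor of the library that the deposited values imply. Log2 changes are differences of the deposited values unless another scale is named. Those values are variance-stabilised, so at low counts a log2 change is smaller than the log2 ratio of the counts. Kit+ counts of these genes are low, so differences between Ter119+ and Kit+ changes carry this too. Globin transcripts took 28.3% to 63.4% of the reads in Ter119+ cytoplasm and 0.645% to 3.06% in Kit+ cytoplasm, so levels in the 2 cell types depend on how libraries are scaled. Libraries labelled VavCre Rpl5flox/+ had 530.7 ± 81.3 normalized counts of Rpl5 in Kit+ cytoplasm against 1046 ± 100 in Rpl5flox/+ libraries (SD, n = 3 each; log2 change -0.97, limma adjusted p = 0.000287). In Ter119+ cytoplasm, Rpl5 was higher in the libraries labelled VavCre Rpl5flox/+ (499.9 ± 47 against 368.3 ± 83.6; log2 change 0.44, limma adjusted p = 0.0278), not the direction of that label. In the same libraries Cdkn1a had 7400, 8263 and 8091 normalized counts against 129.8, 138.5 and 137.2 in Rpl5flox/+ libraries. Cdkn1a was also higher in VavCre Rpl5flox/+ Kit+ cytoplasm (2830, 2753 and 3315 against 81.06, 66.75 and 90.98). Rps19 was higher too in these Ter119+ libraries (24222, 24496 and 24156 against 11176, 10219 and 13241). Whether the label holds was not tested. Rps19 was lower in VavCre Rps19flox/+ Kit+ cytoplasm (log2 change -0.48, adjusted p = 0.00191), and its change in Ter119+ cytoplasm was -0.21 (adjusted p = 0.302). Replicate 3 of Rps19flox/+ Ter119+ cytoplasm stood apart from the other control libraries in the macrophage genes, and results that rest on it are given with and without it.

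The macrophage genes were detected in every cytoplasm library. Of the 9, 8 averaged at least 10 normalized counts in both cell types, and on the deposited scale these 8 were higher in Ter119+ cells than in Kit+ cells of the control genotypes, with log2 differences between 1.09 (Mrc1) and 2.80 (Cd5l). Cd5l had 306.6, 496.3 and 1042 normalized counts as the lowest, median and highest of the 6 Ter119+ control libraries, against 39.62, 62.85 and 105.8 in the 6 Kit+ control libraries. Its libraries did not overlap between the cell types, and the log2 difference was 2.80 ± 0.28 (SE, n = 6 each; limma adjusted p = 2.05e-07). Of the engulfment receptors, Timd4 had 36.9, 73.0 and 87.51 in Ter119+ libraries against 3.334, 6.506 and 11.79 in Kit+ libraries. With a mean of 6.759 in Kit+ libraries it passed the filter on low values through Ter119+ cells alone, so its values are a description. Axl had 107.1, 161.1 and 451.7 in Ter119+ libraries against 23.03, 30.28 and 37.39 in Kit+ libraries, a log2 difference of 2.22 ± 0.26 (limma adjusted p = 1.15e-06). Neither receptor overlapped between the cell types. In bulk RNA of this kind, fewer macrophages in a pool and less RNA of a gene per macrophage cannot be told apart.

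All 3 C1q chains were higher in Ter119+ control cells. C1qa had 139.4, 181.8 and 514.5 in Ter119+ control libraries against 16.96, 32.38 and 45.82 in Kit+ control libraries (log2 difference 2.36 ± 0.27, limma adjusted p = 1e-06). C1qb had 167.4, 224.4 and 672.7 against 22.72, 33.75 and 50.85 (2.57 ± 0.29, limma adjusted p = 7.34e-07). C1qc had 184.7, 216.8 and 704.5 against 23.34, 44.23 and 61.73 (2.39 ± 0.29, limma adjusted p = 2.24e-06). No C1q chain overlapped between the cell types, and the highest Ter119+ value of each was Rps19flox/+ replicate 3. Adgre1 had 93.0, 165.4 and 320.9 in Ter119+ libraries against 14.09, 34.17 and 41.66 in Kit+ libraries (2.11 ± 0.23, limma adjusted p = 6.38e-07). Vcam1, the adhesion molecule of the island, had 166.0, 215.1 and 425.4 against 38.01, 61.43 and 83.56 (1.87 ± 0.24, limma adjusted p = 2.89e-06). Mrc1 had 40.31, 53.69 and 143.1 against 16.32, 21.21 and 47.11, the only one of the 9 genes whose libraries overlapped (1.09 ± 0.27, limma adjusted p = 0.00191).

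Of 10867 genes tested in this comparison, 35.9% were higher in Ter119+ cells and 42.8% were lower, and 60.3% had libraries that did not overlap, beside 8 of 8 and 7 of 8 for the macrophage genes with at least 10 normalized counts in both cell types. The median log2 difference of these 8 was 2.29, beside -0.13 over all genes tested. All 8 stayed higher whichever of the 12 libraries was left out. On RPM, reads scaled to the total of the library, which in Ter119+ libraries is largely globin, Cd5l (0.84, limma adjusted p = 0.00999) and C1qb (0.77, adjusted p = 0.0288) were higher, Mrc1 was lower (-0.73, adjusted p = 0.0439), and Vcam1 was at -0.11. The median of the 8 genes was then 0.47, beside -2.31 over all genes. On RPM outside the globins 7 of 8 were higher and Mrc1 was at 0.40 (adjusted p = 0.277), with medians of 1.64 and -1.17.

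**Figure D1:**
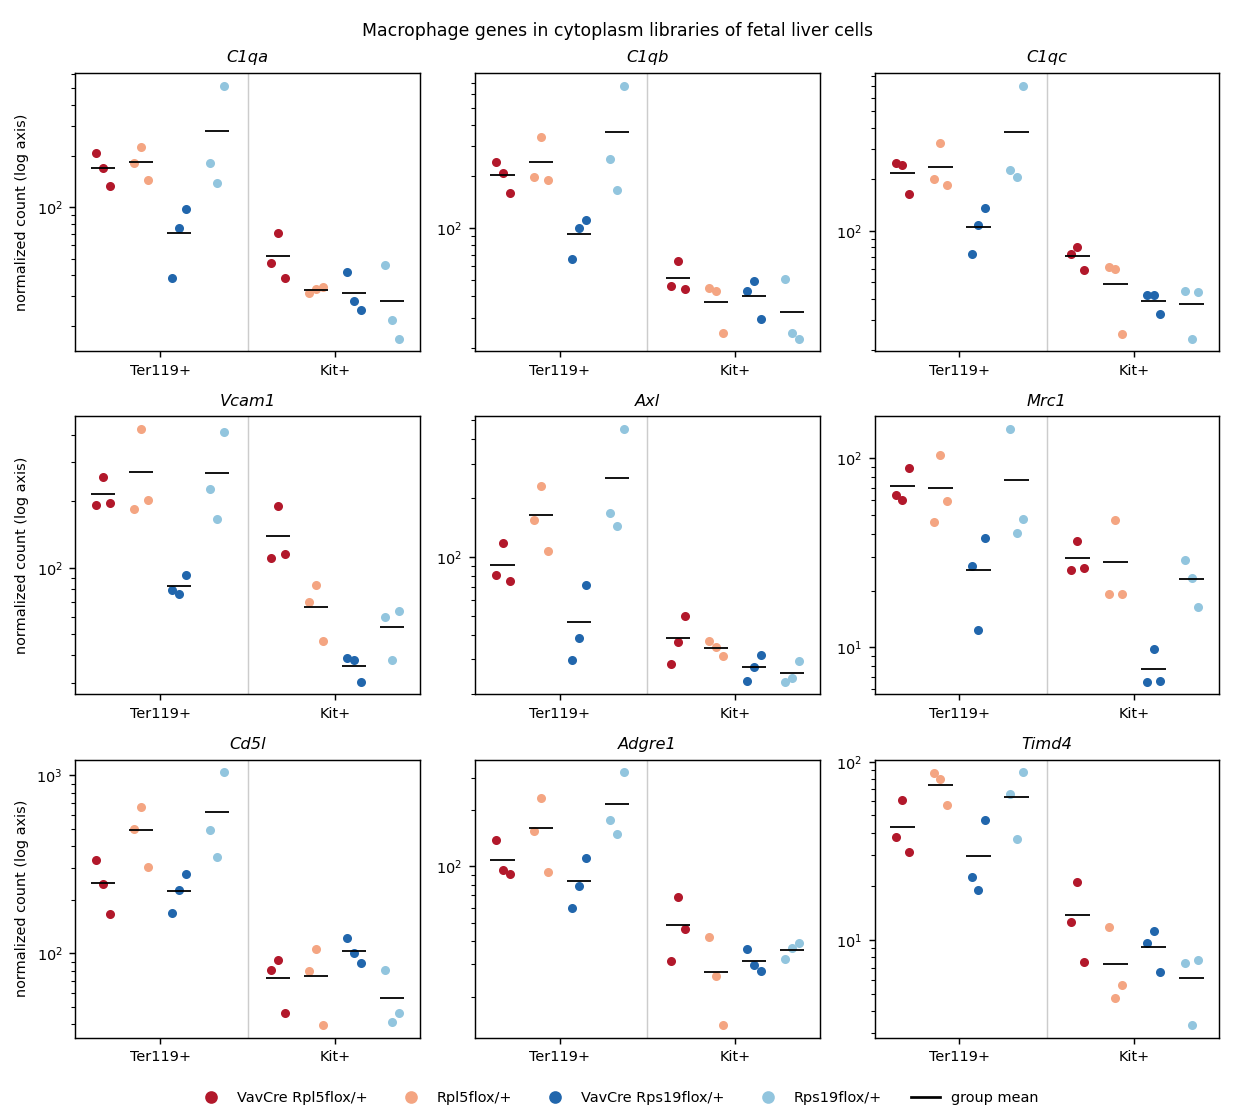
Normalized counts of the 9 macrophage genes in the 24 cytoplasm libraries, 1 panel per gene on a log axis, 1 point per library and a bar at each group mean. Ter119+ libraries lie above the Kit+ libraries of the same genotype for most genes, and replicate 3 of Rps19flox/+ Ter119+ is the highest point for C1qa (514.5), C1qb (672.7), C1qc (704.5), Axl (451.7), Cd5l (1042), Adgre1 (320.9) and Timd4 (87.51).

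On the deposited scale, where 35.9% of all genes were higher and 42.8% lower, other genes of the macrophage and of its work on erythroblasts changed too. Of 23 other macrophage genes tested, 17 were higher in Ter119+ control cells and 2 lower, among them Cd68 of the lysosome (1.26), the growth factor receptor Csf1r (1.20) and the scavenger receptor Marco (2.18). On RPM the order of the cell types turned, with a summed level of the other macrophage genes of 69.4 to 184 in Ter119+ control libraries against 257 to 365 in Kit+ control libraries. Of 11 engulfment genes tested, 7 were higher and 2 lower, led by the scavenger receptor Cd36 (5.43), the nuclease Dnase2a, which digests the DNA of expelled nuclei (1.58), and Stab1 (1.62). All 5 genes of iron handling were higher, with the heme carrier Slc48a1 at 4.00, the iron exporter Slc40a1 at 1.24 and heme oxygenase Hmox1 at 2.56. Cd36, Slc48a1 and Slc40a1 are also genes of erythroblasts. Of the 6 genes on the erythroblast side of the island, 2 were higher, Icam4 (2.66) and Itga4 (1.30), and 2 were lower, Itgb1 (-1.01) among them.

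Markers of other cells also differed between the cell types on the deposited scale. All 10 erythroid genes were higher in Ter119+ cells, with Alas2 at 7.55, and 9 of 14 granulocyte and monocyte genes were lower and 1 higher, with Mpo at -2.18. All 16 hepatocyte genes were higher, with a median log2 difference of 1.01, and their summed level ran between 7411 and 41557 normalized counts in Ter119+ control libraries against 3900 to 19258 in Kit+ control libraries. On RPM the hepatocyte sum ran between 186 and 766 in Ter119+ control libraries against 421 to 1955 in Kit+ control libraries, and these ranges overlapped. Of 12 endothelial and stromal genes tested, 8 were higher and 3 lower, and their summed level was 685.3 to 1198 against 1088 to 1477. No hepatocyte gene was at 0 in any cytoplasm library. The part of hepatocytes and endothelial cells in the level of the macrophage genes was not tested.

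**Figure D2:**
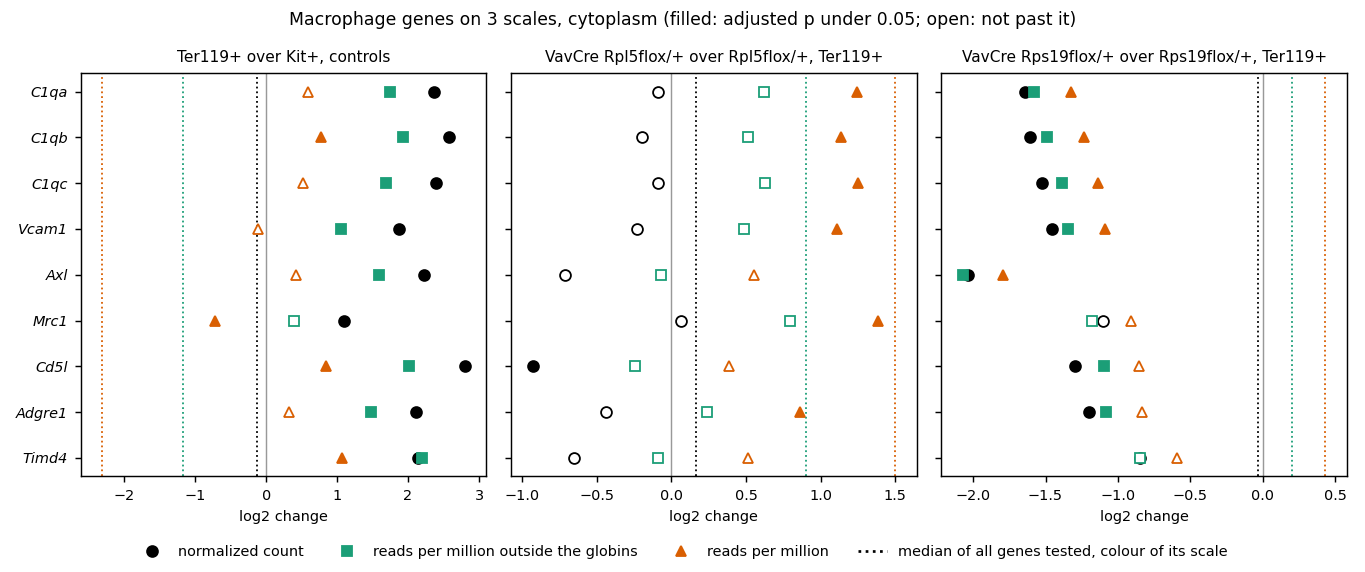
Log2 differences of each macrophage gene in 3 comparisons (panels) and on 3 scales: the deposited values, RPM, and RPM outside the globins. Filled marks passed the test, and dotted lines are the median of all genes on each scale. Between Ter119+ and Kit+ controls, Mrc1 moves from 1.09 on the deposited values to -0.73 on RPM, and Cd5l from 2.80 to 0.84.

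Macrophage genes fell in VavCre Rps19flox/+ Ter119+ cytoplasm. Of the 9 genes, 7 were lower than in Rps19flox/+ controls, with log2 changes between -1.20 and -2.03, and none was higher. Of 10939 genes tested, 13.3% were lower and 12.5% higher. Axl had the largest fall, with 29.64, 38.41 and 72.01 normalized counts in the VavCre Rps19flox/+ libraries against 168.1, 144.2 and 451.7 in the Rps19flox/+ libraries. Every VavCre value of Axl lay below every control value, and the log2 change was -2.03 ± 0.39 (SE, 95% interval -2.87 to -1.20, n = 3 each; limma adjusted p = 0.00238). Vcam1 had 79.58, 75.97 and 92.29 against 226.8, 166.0 and 414.6, again with no overlap, and a log2 change of -1.46 ± 0.32 (interval -2.14 to -0.77; limma adjusted p = 0.00516).

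The C1q chains fell together. C1qa had 38.42, 75.12 and 97.37 in VavCre Rps19flox/+ Ter119+ libraries against 182.5, 139.4 and 514.5 in Rps19flox/+ libraries, a log2 change of -1.64 ± 0.39 (limma adjusted p = 0.00821). C1qb had 66.41, 100.7 and 111.6 against 250.8, 167.4 and 672.7, a change of -1.61 ± 0.39 (limma adjusted p = 0.00867). C1qc had 73.54, 108.4 and 135.4 against 226.5, 207.0 and 704.5, a change of -1.52 ± 0.38 (limma adjusted p = 0.0108). In each chain the groups did not overlap, and the highest control value was that of replicate 3.

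Cd5l and Adgre1 also fell, by less. Cd5l had 169.0, 228.4 and 278.4 in VavCre Rps19flox/+ libraries against 490.4, 346.4 and 1042 in Rps19flox/+ libraries (log2 change -1.29 ± 0.37, limma adjusted p = 0.0207). Adgre1 had 59.82, 78.11 and 111.6 against 176.6, 149.6 and 320.9 (-1.20 ± 0.33, limma adjusted p = 0.0162). Neither overlapped between the groups. Mrc1 had 26.89, 12.38 and 38.03 against 143.1, 40.31 and 47.73, with no overlap and a change of -1.11 that did not pass (adjusted p = 0.0564). Timd4 had 22.5, 19.21 and 47.16 against 66.31, 36.9 and 87.51, the only one of the 9 that overlapped (-0.85, adjusted p = 0.0687). Groups did not overlap for 8 of 9 genes, beside 43.1% of all genes, and the median change was -1.46, beside -0.03 over all genes tested.

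Without Rps19flox/+ replicate 3, 6 of 9 macrophage genes were lower: Axl at -1.55 (limma adjusted p = 0.00586), Mrc1 at -1.30 (0.0466), C1qa at -1.11 (0.0195), Vcam1 at -1.11 (0.017), C1qb at -1.06 (0.0186) and C1qc at -0.98 (0.0232). Cd5l was then at -0.86 (adjusted p = 0.0731) and Adgre1 at -0.90 (adjusted p = 0.0598). Both also missed without VavCre Rps19flox/+ replicate 1 (-1.11 and -1.02), and Cd5l without VavCre Rps19flox/+ replicate 2 (-1.31). With the replicate number as a block, all 9 were lower, Mrc1 with an adjusted p of 0.0298 and Timd4 with 0.0235. On RPM, the C1q chains, Vcam1 and Axl were lower, with a median of -1.09 over the 9 genes beside 0.43 over all genes.

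Macrophage genes outside the 9 fell as well, and so did genes of other white cells, beside 13.3% of all genes lower and 12.5% higher. Of 23 other macrophage genes, 18 were lower, led by Mpeg1, a pore-forming protein of phagocytes (-2.13, limma adjusted p = 5.04e-05), Csf1r (-2.04, adjusted p = 7.36e-05) and the transcription regulator Id3 (-1.95). The count was 11 without Rps19flox/+ replicate 3 and 11 without VavCre Rps19flox/+ replicate 1. Their summed level was 1017 to 1378 normalized counts in VavCre Rps19flox/+ libraries against 2782 to 7317 in Rps19flox/+ libraries. Of 14 granulocyte and monocyte genes, 10 were lower, with Camp, an antimicrobial peptide of granules, at -3.39, and their summed level was 1957 to 3672 against 8401 to 17177. No gene of these 2 lists was at 0 in either group. Of 16 hepatocyte genes 0 changed, with a median of 0.14 and a summed level of 12583 to 17813 against 7411 to 22364. The part of granulocytes and monocytes in the fall of the macrophage genes was not tested.

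Genes of macrophage work changed in part, in a comparison where 13.3% of all genes were lower and 12.5% higher. Of 5 iron handling genes, 2 were lower: Spic, a transcription factor of iron-recycling macrophages (-1.41, limma adjusted p = 0.00545), and the iron transporter Slc11a1 (-1.18, adjusted p = 0.037). Of 11 engulfment genes, 4 were lower, with Stab1 at -0.75 and Dnase2a at -0.67, and Pros1, a bridging protein between phosphatidylserine and the receptor family of Axl, was higher at 1.19. Among other complement genes, properdin Cfp was lower (-1.44). On the erythroblast side, Icam4 was lower (-0.85, adjusted p = 0.000593), and the other 5 genes did not pass the test. Of 12 endothelial and stromal genes, 3 were lower: Cdh5 (-0.93), Stab2 (-0.87) and Lyve1 (-0.62).

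**Figure D3:**
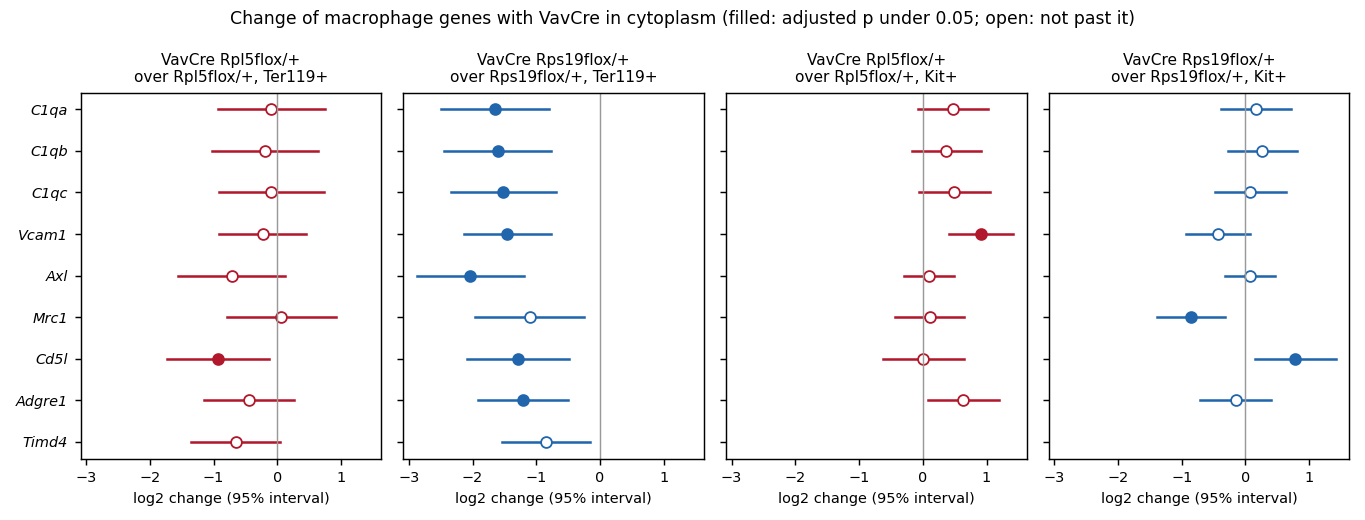
Log2 change of each macrophage gene with VavCre against the floxed control of the same line in Kit+ and Ter119+ cytoplasm, as points with 95% intervals, filled where the test was passed. In the Rps19 line the Ter119+ changes lie between -0.85 and -2.03, while those of the Rpl5 line in the same cells lie between -0.93 and 0.06.

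In the libraries labelled VavCre Rpl5flox/+ Ter119+, Cd5l alone of the 9 macrophage genes passed the test, lower than in the control on the deposited scale. Of 10939 genes, 30.1% were lower and 35.3% higher. Cd5l had 334.5, 244.7 and 166.0 normalized counts in the VavCre Rpl5flox/+ libraries against 502.2, 667.0 and 306.6 in the Rpl5flox/+ libraries. The highest VavCre value lay above the lowest control value, and the log2 change was -0.93 ± 0.37 (SE, 95% interval -1.73 to -0.13, n = 3 each; limma adjusted p = 0.0401). It passed in 8 of 12 fits with a library removed and missed without Rpl5flox/+ replicate 1 (adjusted p = 0.0994) or 2 (0.161) or VavCre Rpl5flox/+ replicate 2 (0.0757) or 3 (0.155). Cd5l also missed by voom (adjusted p = 0.0536) and with no filter (0.0701), and it was at 0.39 on RPM (adjusted p = 0.313) and -0.24 on RPM outside the globins (0.559). Axl had 81.03, 118.6 and 75.23 against 154.2, 230.5 and 107.1 (-0.71, adjusted p = 0.122). Timd4 had 37.74, 60.97 and 31.04 against 86.79, 79.69 and 57.08 (-0.65, adjusted p = 0.0896). With the replicate number as a block, Axl (limma adjusted p = 0.0107) and Timd4 (0.0341) were lower too.

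The other 6 genes did not pass the test either. C1qa had 207.9, 170.0 and 133.9 in the libraries labelled VavCre Rpl5flox/+ against 181.2, 224.4 and 143.7 in Rpl5flox/+ libraries, and its change of -0.09 had a 95% interval of -0.94 to 0.75. C1qb averaged 204.7 ± 42.2 against 241.7 ± 82.8 (SD), and C1qc 218.4 ± 47.9 against 237.5 ± 78.2. Vcam1 averaged 215.4 ± 36.2 against 271.4 ± 134, Mrc1 71.19 ± 15.6 against 70.07 ± 30.3, and Adgre1 108.7 ± 25.8 against 160.0 ± 70.2. The libraries of the groups overlapped for all 9 genes, beside 71.7% of all genes with no overlap, and the median change was -0.23, beside 0.16 over all genes.

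The direction of these changes turned with the scale. On RPM, C1qa had 11.2, 7.65 and 7.79 in the libraries labelled VavCre Rpl5flox/+ against 3.66, 3.19 and 4.15 in Rpl5flox/+ libraries, with no overlap. On that scale 6 of 9 macrophage genes were higher, with a median log2 change of 1.11, beside 1.50 over all genes. Globins took 28.3% to 40.0% of reads in the libraries labelled VavCre Rpl5flox/+ against 52.0% to 63.4% in Rpl5flox/+ libraries. On RPM outside the globins 0 of 9 passed, with medians of 0.49 and 0.90. The part of the globin share in these differences was not tested beyond this change of scale.

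In these libraries, where 35.3% of all genes were higher and 30.1% lower, some genes of other lists changed. Of 23 other macrophage genes, 5 were higher and 0 lower, with the Fc receptor Fcgr3 at 2.31, Spi1, which encodes PU.1, at 1.86 and the Fc receptor chain Fcer1g at 1.31, all also genes of granulocytes and monocytes. Of 14 granulocyte and monocyte genes, 12 were higher, with the granule protease Ctsg at 4.30, and their summed level was 51009 to 107233 normalized counts in the libraries labelled VavCre Rpl5flox/+ against 8616 to 17122 in Rpl5flox/+ libraries. All 10 erythroid genes were lower, with the erythropoietin receptor Epor at -1.98. Of 6 genes on the erythroblast side of the island, Icam4 (-2.61) and Itga4 (-1.23) were lower and 2 were higher, Itga5 (1.25) among them. Of 5 iron handling genes, Slc48a1 (-2.32) and Slc40a1 (-0.88) were lower and Hmox1 (1.85) was higher. Of 11 engulfment genes, 3 were higher and 2 lower, with the engulfment adaptor Elmo1 at 2.21 and Cd36 at -3.43. Of 16 hepatocyte genes 3 were higher, and their sum was 33108 to 50444 against 26490 to 41557. The part of these other cells in the level of the 9 genes was not tested.

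In Kit+ progenitors the macrophage genes were at low level on the normalized counts, and few of them passed the test. On RPM, Vcam1 and Mrc1 averaged higher in Kit+ than in Ter119+ control cytoplasm, and the other genes averaged lower. With VavCre Rpl5flox/+, Vcam1 was higher, at 110.7, 190.0 and 115.2 normalized counts against 70.01, 83.56 and 46.37 in Rpl5flox/+ libraries. The groups did not overlap, and the log2 change was 0.91 ± 0.23 (SE, 95% interval 0.41 to 1.41, n = 3 each; limma adjusted p = 0.00771), and it passed in 12 of 12 fits with a library removed. It was the only one of 8 genes tested that passed, beside 20.8% of 10908 genes higher and 16.4% lower, and groups did not overlap for 2 of 8, beside 51% of all genes. Timd4, at 3.334 to 21.21 in all Kit+ cytoplasm libraries, had too few reads for the test. Adgre1 had 31.12, 68.35 and 46.33 against 41.66, 25.8 and 14.09 (0.64, adjusted p = 0.0674), and C1qa 47.05, 70.7 and 38.57 against 31.62, 33.14 and 34.04 (0.47, adjusted p = 0.163). The other 5 changes were between 0.01 and 0.49. Around them, 8 of 19 other macrophage genes, 11 of 14 granulocyte and monocyte genes and 15 of 16 hepatocyte genes were higher, and 2 of 12 endothelial and stromal genes, Egfl7 and Tek, were higher. The part of those cells in the rise of Vcam1 was not tested.

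With VavCre Rps19flox/+, Cd5l was higher in Kit+ cells, and Mrc1 is given as values. Mrc1 had 6.574, 9.826 and 6.654 normalized counts in VavCre Rps19flox/+ libraries against 29.02, 23.34 and 16.32 in Rps19flox/+ libraries. The groups did not overlap, and the log2 change was -0.86. Mrc1 averaged 7.685 in the VavCre Rps19flox/+ libraries and passed the filter on low values through other groups, so these values are a description. Cd5l had 122.6, 100.0 and 88.24 against 80.36, 41.34 and 46.41, with no overlap and a change of 0.78 ± 0.30 (interval 0.15 to 1.42; limma adjusted p = 0.0382). Cd5l passed in 8 of 12 fits with a library removed and missed without VavCre Rps19flox/+ replicate 1 or 2 or Rps19flox/+ replicate 2 or 3. Of 10908 genes, 26.1% were lower and 27.6% higher. With Mrc1 counted, this was 1 of 8 macrophage genes each way, and groups did not overlap for 2 of 8, beside 60.9% of all genes. C1qa had 41.5, 28.13 and 24.88 against 45.82, 21.78 and 16.96, and Vcam1 38.9, 38.34 and 30.38 against 59.49, 38.01 and 63.37 (-0.43, adjusted p = 0.135). The other 5 changes, C1qa included, were between -0.15 and 0.27. In the same libraries 12 of 19 other macrophage genes and 14 of 14 granulocyte and monocyte genes were lower, with Mpeg1 at -2.03 and Fcer1g at -2.31.

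The VavCre change was set against that of the other line within each cell type. In Kit+ cytoplasm the VavCre change of Vcam1 in the Rpl5 line was 1.34 ± 0.33 above that in the Rps19 line (SE, limma adjusted p = 0.00448). In this test 23.2% of 10908 genes were higher and 25% lower. That of Mrc1 was 0.97 above, a description, since Mrc1 averaged under 10 normalized counts in VavCre Rps19flox/+ Kit+ cytoplasm. Once replicate numbers were blocked, Cd5l passed as well, lower in the Rpl5 line (-0.77, adjusted p = 0.0175). In Ter119+ cytoplasm the difference was 1.55 ± 0.56 for C1qa (adjusted p = 0.038), 1.43 ± 0.54 for C1qc (adjusted p = 0.0481), 1.23 ± 0.45 for Vcam1 (adjusted p = 0.0424) and 1.41 for C1qb (adjusted p = 0.0538), with 20.5% of 10939 genes higher and 20.9% lower. With the replicate number as a block, C1qb (adjusted p = 0.0157) and Axl (1.32, adjusted p = 0.0043) passed as well. Without Rps19flox/+ Ter119+ replicate 3, 0 of 9 genes passed in Ter119+ cells by limma, with C1qa at 1.02 (adjusted p = 0.0684). C1qa and C1qc passed in 5 and Vcam1 in 3 of 12 fits with a library removed, and 0 genes passed without Rpl5flox/+ replicate 1 or 3 or without replicate 1 or 2 of either VavCre genotype. In the test on all libraries 5 of 9 had an unadjusted p under 0.05. The count in Ter119+ cells also turned on the setting, with 0 genes with no filter, 1 with libraries set to 1 median, 8 on RPM and 7 on RPM outside the globins.

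Within the Rps19 line on the deposited scale, the VavCre change in Ter119+ cells lay below that in Kit+ cells for 5 of 9 macrophage genes, against 8.35% of 11018 genes lower and 3.93% higher. The differences were -2.10 ± 0.46 for Axl (limma adjusted p = 0.00622), -2.07 ± 0.52 for Cd5l (0.013), -1.87 ± 0.50 for C1qb (0.0187), -1.81 ± 0.50 for C1qa (0.0229) and -1.60 ± 0.50 for C1qc (0.0399). Without Rps19flox/+ Ter119+ replicate 3, C1qc was at -1.05 (adjusted p = 0.0909) and the other 4 passed. Over fits with 1 library removed the count ran from 2 to 6, with 2 without Rps19flox/+ Kit+ replicate 3 and 3 without VavCre Rps19flox/+ Kit+ replicate 1, VavCre Rps19flox/+ Ter119+ replicate 1 or Rps19flox/+ Kit+ replicate 2. It was 3 by voom, 2 on RPM and 3 on RPM outside the globins, and once replicate numbers were blocked Vcam1 passed as well (-1.03, adjusted p = 0.0438). Of 22 other macrophage genes 0 passed this test, with a median of -0.53. Within the Rpl5 line, Vcam1 passed the same test, lower in Ter119+ than in Kit+ cells (-1.14 ± 0.42, limma adjusted p = 0.0296), against 22.6% of 11018 genes lower and 25.8% higher. It was at 0.13 on RPM (adjusted p = 0.784) and -0.47 on RPM outside the globins (0.356). Timd4 was at -1.09, a description, since it had too few reads for a test in Kit+ cells alone. The count of genes past the threshold was 2 on all libraries and ran from 0 to 3 with 1 library removed. It was 0 without VavCre Rpl5flox/+ Kit+ replicate 2, VavCre Rpl5flox/+ Ter119+ replicate 3, Rpl5flox/+ Kit+ replicate 3 or Rpl5flox/+ Ter119+ replicate 2, and 0 on both RPM scales. Adgre1 passed too once replicate numbers were blocked (-1.08, adjusted p = 0.0342).

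**Figure D4:**
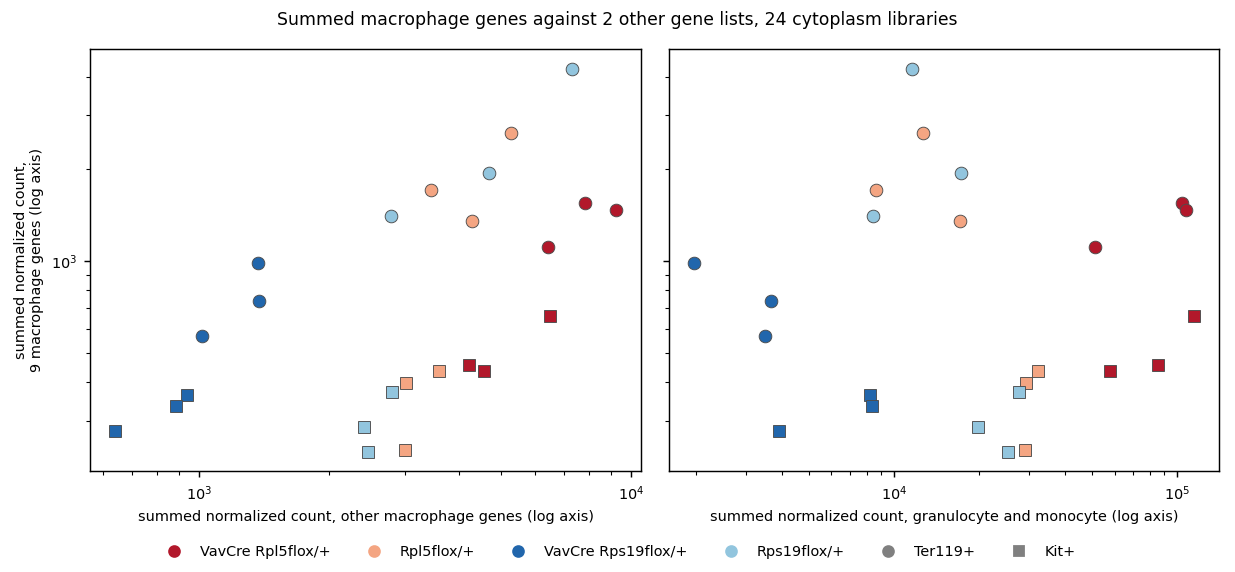
Summed normalized counts of the 9 macrophage genes (vertical) against those of the other macrophage genes (left) and of granulocyte and monocyte genes (right), all on log axes, with 1 point per cytoplasm library, circles for Ter119+ and squares for Kit+ cells. In Ter119+ cells the sum of the 9 macrophage genes was 565.8 to 983.8 in VavCre Rps19flox/+ libraries against 1397 to 4256 in Rps19flox/+ libraries, and granulocyte and monocyte sums were 1957 to 3672 against 8401 to 17177.

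Ordered by mean normalized count in cytoplasm, a Ter119+ control group came first for each macrophage gene: Rps19flox/+ for 7 genes and Rpl5flox/+ for Vcam1 (271.4 ± 134 against 269.1 ± 130 in Rps19flox/+ Ter119+, SD) and Timd4 (74.52 ± 15.51 against 63.57 ± 25.4), which differed by less than 1 SD. Without Rps19flox/+ Ter119+ replicate 3, Rps19flox/+ came first for 2 genes, Mrc1 and Adgre1, and Rpl5flox/+ for the other 7. On RPM, VavCre Rpl5flox/+ Ter119+ came first for 6 genes, Rps19flox/+ Ter119+ for Axl and Cd5l, and VavCre Rpl5flox/+ Kit+ for Vcam1 (13.6). The order below is that of the normalized counts. VavCre Rps19flox/+ Ter119+ came after the other 3 Ter119+ groups for every gene and above all Kit+ groups for 7 of the 9. Vcam1 was higher in VavCre Rpl5flox/+ Kit+ cells (138.7 ± 44.5) than in VavCre Rps19flox/+ Ter119+ cells (82.62 ± 8.57). Mrc1 averaged 25.77 ± 12.9 in VavCre Rps19flox/+ Ter119+ cells, within 1 SD of VavCre Rpl5flox/+ Kit+ cells (29.69 ± 6.14) and Rpl5flox/+ Kit+ cells (28.42 ± 16.2). Among Kit+ groups Axl was highest in VavCre Rpl5flox/+ (38.48 ± 11) and lowest in Rps19flox/+ (25.57 ± 3.41), and Timd4 had its highest and lowest means in the same groups (13.76 ± 6.92 and 6.15 ± 2.44).

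The share of each C1q chain in the reads of the 3 chains varied between cytoplasm libraries. C1qa took 20.3% to 40.7% of these reads (median 27.7%), C1qb 27.2% to 41.1% (median 34.1%) and C1qc 29.8% to 52.5% (median 37.3%), as shares of reads not corrected for length. After the mean of each group was subtracted, the log2 values of the 3 pairs of chains correlated at Pearson r 0.782 to 0.906 over the 24 libraries. The other 33 pairs of macrophage genes ran between 0.03 and 0.89, with a median of 0.65. The lowest was Axl with Mrc1, and no pair with Mrc1 lay above 0.34 (Vcam1). The lowest pair without Mrc1 was Axl with Cd5l, at 0.58. These libraries share pools, scaling and depth between genes, so the correlations are descriptions.

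The genes closest to the mean of the 7 macrophage genes with a mean of at least 50 normalized counts were sought among 8938 genes. Over the 24 cytoplasm libraries they were the syndecan Sdc3 (Pearson r 0.96), Borcs8 (0.94), the ficolin Fcna (0.94), the Fc receptor Fcgrt (0.92), Elob, Smdt1, Myl6, Ndufb11, the engulfment receptor Lrp1 and the lectin Lgals3. After the group means were subtracted they were Cfp (0.93), Sdc3 (0.93), Fcna (0.90), the protease Ctss (0.90), Ckb (0.90), Hmox1 (0.89), Crip1 (0.89), Lgals3 (0.89), Marco (0.87) and Polr1h (0.86). Sdc3, Fcna and Lgals3 were in both lists.

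In polysomes of control cells, 6 of the 9 genes averaged at least 10 normalized counts in both cell types, and 4 of these passed, higher in Ter119+ libraries: C1qa, C1qb, C1qc and Vcam1. Over all genes 16.4% of 10512 were higher and 7.33% lower. Of the 6, 0 passed on RPM by limma and 1, C1qc, on RPM outside the globins (adjusted p = 0.0219). On log2 of the normalized count plus 1, 1 of the 6 passed, and without the libraries under 2 M reads 2 passed. With 1 library removed, 1 to 4 of the 6 passed. The count was 1 without Rpl5flox/+ Ter119+ replicate 2 or Rps19flox/+ Ter119+ replicate 1. Adgre1, Timd4 and Axl passed the filter through Ter119+ cells alone, so their values are a description. Adgre1 had 100.7 and 106.7 normalized counts in Rpl5flox/+ and 45.25, 36.49 and 39.33 in Rps19flox/+ Ter119+ polysomes, and was at 0 in all 6 Kit+ control polysome libraries. Against a floor of 3 reads over those 6 libraries it was at least 30.2-fold higher in Ter119+ polysomes. Timd4 had 14.38 and 56.49 in Rpl5flox/+ and 57.59, 92.63 and 108.2 in Rps19flox/+ Ter119+ polysomes, was likewise at 0 in the Kit+ control polysomes, and was at least 30.3-fold higher by the same floor. Such floors cover counting error only, and both folds hold on the normalized counts. On RPM, Adgre1 averaged 0.955 and Timd4 1.24 in Ter119+ control polysomes. A count of 3 reads in a single Kit+ control polysome library is 0.418 to 2.97 RPM. Axl had 115.0 and 150.6 in Rpl5flox/+ and 304.4, 398.6 and 314.6 in Rps19flox/+ Ter119+ polysomes, against 0 in 5 of 6 Kit+ control libraries and 48.44 in the other.

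C1qc was higher in Ter119+ control polysomes, with 174.0, 258.8 and 583.7 as the lowest, median and highest of 5 libraries, against 0 in 4 of 6 Kit+ libraries (4.15, limma adjusted p = 0.00865). C1qa (3.23, adjusted p = 0.035), C1qb (3.67, adjusted p = 0.0261) and Vcam1 (3.37, adjusted p = 0.0283) passed in the full test. With a library removed, C1qa passed in 3 of 11 fits, and C1qb and Vcam1 in 7 each. With the replicate number as a block these 3 did not pass (adjusted p = 0.0555, 0.089 and 0.0697). Cd5l ran from 28.07 to 1780 in Ter119+ and from 0 to 234.0 in Kit+ control polysomes (2.59, adjusted p = 0.106). Mrc1 went the other way, with 0 to 65.82 in Ter119+ against 0 to 373.9 in Kit+ libraries (-1.04, adjusted p = 0.61).

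**Figure D5:**
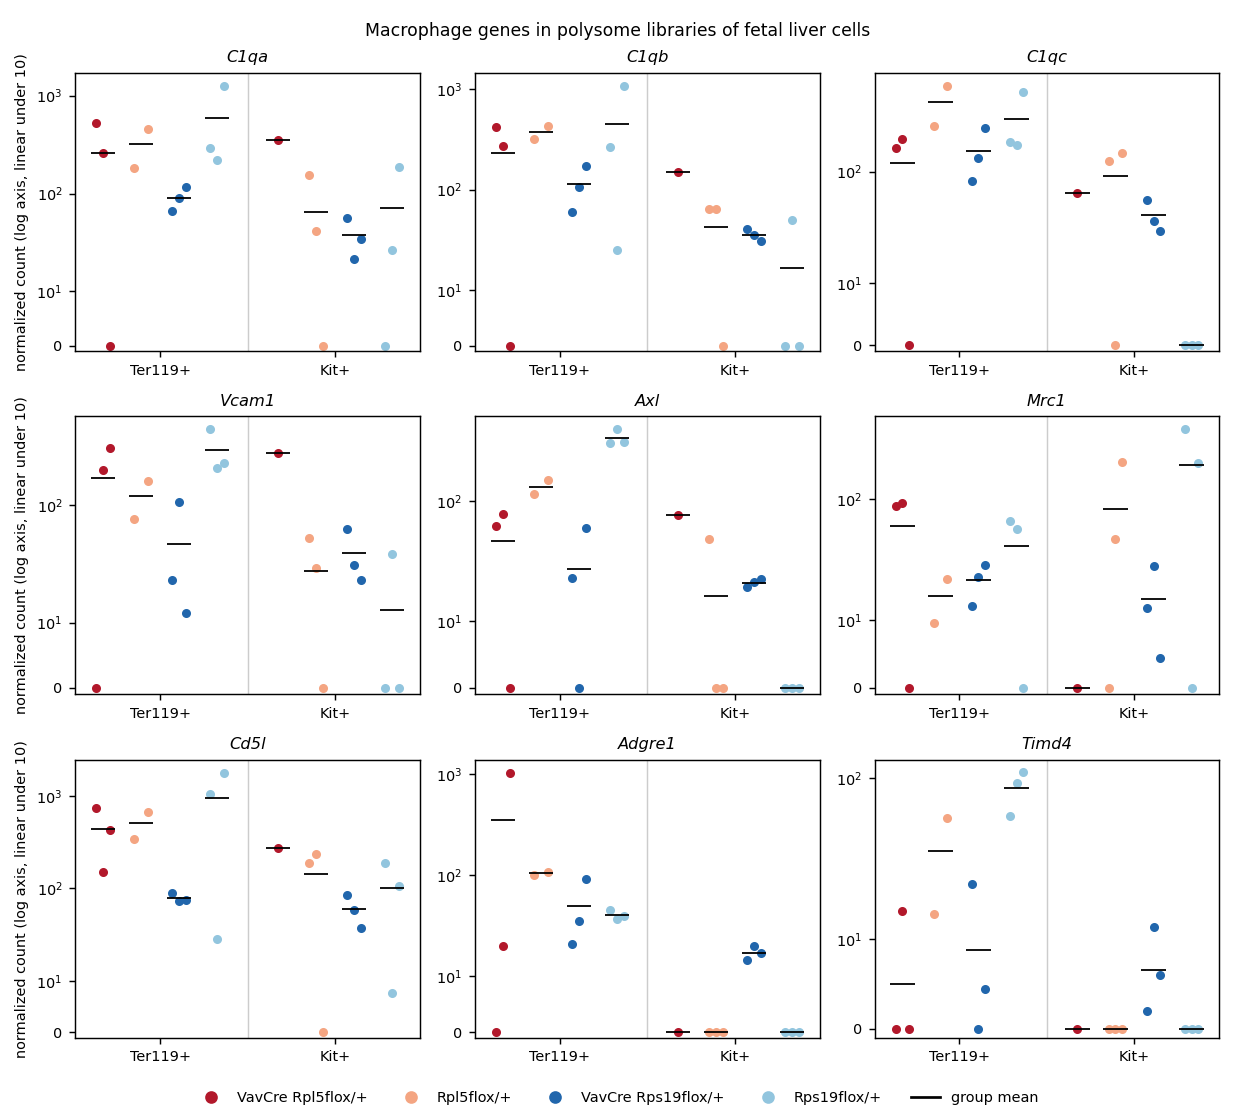
Normalized counts of the 9 macrophage genes in the 21 polysome libraries, 1 panel per gene, 1 point per library and a bar at each group mean. Adgre1 and Timd4 are at 0 in all 6 Kit+ control libraries, and C1qa reaches 1249 in Rps19flox/+ Ter119+ replicate 3.

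With VavCre, no macrophage gene passed in polysomes after adjustment. In VavCre Rps19flox/+ Ter119+ polysomes, Axl had 23.02, 0 and 59.37 normalized counts against 304.4, 398.6 and 314.6 in Rps19flox/+ libraries. The groups did not overlap, and the log2 change was -3.68 ± 1.25 (limma adjusted p = 0.219). Cd5l had 89.9, 73.67 and 74.76 against 1049, 28.07 and 1780, and C1qa 65.78, 89.74 and 115.4 against 292.1, 218.9 and 1249. Of 9 genes tested 0 passed, beside 0.801% of 10614 genes, and 2 of 9, Axl and Timd4, had an unadjusted p under 0.05, both lower. By limma voom 1 of 9 passed. The median change was -2.13, beside 0.51 over all genes.

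In the libraries labelled VavCre Rpl5flox/+ Ter119+ polysome, 0 of 9 genes passed, beside 13.2% of 10614 genes, and 0 had an unadjusted p under 0.05. C1qa had 521.4, 257.7 and 0 against 182.1 and 458.2 in the 2 Rpl5flox/+ libraries. Adgre1 had 0, 19.82 and 1035 against 100.7 and 106.7, and the value of 1035 came from 34 reads in a library of 1.02 M reads. In VavCre Rps19flox/+ Kit+ polysomes 0 of 7 genes tested passed, beside 9.86% of 10557 genes. C1qc and Axl were at 0 in all 3 Rps19flox/+ libraries and passed the filter through other groups, so their values are a description. C1qc had 56.23, 35.94 and 29.54, at least 8.74-fold higher against a floor of 3 reads over the 3 control libraries. Axl had 19.39, 21.24 and 22.34, at least 4.52-fold higher by the same floor, which covers counting error only. Those controls held 1.01, 7.17 and 1.83 M reads, against 10.8, 24.4 and 37.6 M in the VavCre Rps19flox/+ libraries. In Rpl5flox/+ Kit+ polysomes, C1qc had 0, 125.1 and 146.4 as lowest, median and highest, and Axl 0, 0 and 48.44. The single VavCre Rpl5flox/+ Kit+ polysome library had no replicate and entered no comparison.

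Between the fractions of the same control pools, 6 genes averaged at least 10 normalized counts in both fractions of Kit+ controls, and 1 of them passed. Vcam1 was lower on polysomes (-1.86, limma adjusted p = 0.0493), beside 37.4% of 10689 genes lower and 7.69% higher. It missed with no filter (adjusted p = 0.0522), by voom (0.0917), on log2 of the normalized count plus 1 (0.0681), with libraries set to 1 median (0.0758) and without the libraries under 2 M reads (-0.51, adjusted p = 0.586). It also missed without replicate 2 or 3 of Rpl5flox/+ or replicate 1 or 3 of Rps19flox/+. Adgre1 was at 0 in all 6 Kit+ polysome libraries, against 14.09, 34.17 and 41.66 normalized counts as the lowest, median and highest of 6 cytoplasm libraries, at least 14.5-fold lower on polysomes by a floor of 3 reads over the 6. Axl averaged 8.073 on Kit+ polysomes against 29.96 in the cytoplasm. Both passed the filter through the cytoplasm alone, so these values are a description. The medians were -0.56 for the 6 genes and -1.32 for all genes. In Ter119+ controls Adgre1 was at 36.49 to 106.7 on polysomes against 149.6 to 320.9 in the cytoplasm of pools with both fractions (-1.52 ± 0.49, limma adjusted p = 0.0426), 1 of 9 genes beside 21.9% of 10588 genes lower and 4.81% higher. It passed in 0 of 10 fits with a library removed, and it missed with no filter (adjusted p = 0.0575), by voom (0.0545), on log2 of the normalized count plus 1 (0.065), with libraries set to 1 median (-1.11, 0.149) and on RPM outside the globins (0.0694). C1qa was at 0.70 (adjusted p = 0.129), Cd5l at -0.36 and Axl at 0.15. The medians were -0.22 for the macrophage genes and -0.66 for all genes.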

How the data were processed

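Poly(A) RNA of pooled fetal liver cells was measured in 45 libraries. The authors deposited 1 table of log2 values, which by their form are variance-stabilised counts of reads, scaled by library size factors, with genes of few reads removed. Per the submitters' processing notes the genome build was mm10, with aligner and counter not given in the sources used here. Inverting that form gave whole reads for 100.0% of values (tolerance 1e-06), and normalized counts, depths and RPM values come from them. Since the deposited unit is log2, the main test was limma 3.58.1 (R 4.3.3; lmFit and eBayes with a trend) on the deposited values. A gene was tested where its normalized counts averaged 10 or more in a fit's libraries, with Benjamini-Hochberg adjustment over all of them, a threshold of 0.05 and two-sided p-values. Between cell types and fractions, a macrophage gene with a mean under 10 on the lower side passed the filter through the other side alone and is given as values. C1qc and Axl, at 0 in Rps19flox/+ Kit+ polysomes, are likewise given as values for VavCre Rps19flox/+ Kit+ polysomes. So is Mrc1 for VavCre Rps19flox/+ Kit+ cytoplasm, where it averaged under 10, and for the line difference in Kit+ cytoplasm. The procedure was tested on simulated data.

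VavCre genotypes were compared with their control within each cell type and fraction, in 1 fit over the 4 genotypes. Ter119+ was compared with Kit+ in both control genotypes with the line as a covariate, and polysome with cytoplasm with the pool as a block. Replicate numbers name separate pools, whose origin in separate litters the labels do not state in full, so p-values measure the spread between these pools. Libraries with the same number deviated together in all 3 pairs of VavCre and control in Kit+ Rpl5 cytoplasm (r 0.308 to 0.399), Ter119+ Rpl5 cytoplasm (0.176 to 0.366) and Ter119+ Rps19 cytoplasm (0.117 to 0.541), and in all 3 pairs of Ter119+ and Kit+ cytoplasm in VavCre Rpl5flox/+ (0.15 to 0.446) and in Rps19flox/+ (0.225 to 0.323). In Ter119+ Rps19 cytoplasm the unlike-numbered pair of VavCre replicate 2 and control replicate 3 reached 0.388. Other sets did not deviate together in this way. Among them, Ter119+ and Kit+ cytoplasm of VavCre Rps19flox/+ had r -0.366 to -0.145. VavCre and control in Kit+ Rps19 cytoplasm had r -0.0438 to -0.012. No replicates of the same group were copies of each other (lowest chi-square per degree of freedom 22.28 over 43 replicate pairs). Libraries of different groups were not compared in this way.

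The genes and lists were chosen with earlier results of these data known. The 9 genes are given in every comparison, and of each other list the 3 genes with the smallest adjusted p were eligible to be named, with others named after their values were seen. Vsig4, Ms4a7 and Cd163 were not analysed here. The alternatives were other filters, scales, scalings, blocks and left-out libraries. Python 3.11.15 with numpy 2.4.6, pandas 2.3.3 and matplotlib 3.10.9 made the tables and figures.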

Additional observations from a re-analysis of the deposited data

Results flagged for a closer look

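In sets of 5 or 6 control libraries, 1 library stood far from the others in 6 of 34 sets of a gene and a group. The rule's rate of about 1 in 20 assumes normal values and separate sets. These counts hold zeros, and the genes share libraries and correlate, so the 6 cannot be set against that rate. Replicate 3 of Rps19flox/+ Ter119+ cytoplasm was that library for C1qa (514.5 normalized counts), C1qb (672.7), C1qc (704.5) and Axl (451.7). In Ter119+ polysomes it was replicate 3 of Rps19flox/+ for C1qa (1249), and in Kit+ polysomes replicate 1 of Rpl5flox/+ for Axl (48.44, with the other 5 at 0). With 5 libraries at 0 the rule flags any value in the other.

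The VavCre change differed between the lines by a test of the difference. In Kit+ cytoplasm the Rpl5 change lay above the Rps19 change by 1.34 for Vcam1 and 0.965 for Mrc1, beside 23.2% of all genes higher and 25% lower. The Mrc1 value is a description, since Mrc1 averaged under 10 normalized counts in VavCre Rps19flox/+ Kit+ cytoplasm. Vcam1 passed in 12 of 12 fits with a library removed. In Ter119+ cytoplasm the Rpl5 change lay above by 1.55 for C1qa, 1.43 for C1qc and 1.23 for Vcam1, beside 20.5% of all genes higher and 20.9% lower. C1qa and C1qc passed in 5 and Vcam1 in 3 of 12 such fits, and no gene passed without Rps19flox/+ Ter119+ replicate 3. The change also differed between the cell types within a line, as Ter119+ minus Kit+. In the Rps19 line the difference was -2.1 for Axl, -2.07 for Cd5l, -1.87 for C1qb, -1.81 for C1qa and -1.6 for C1qc. Over all genes 8.35% were lower and 3.93% higher, and the count of macrophage genes ran from 2 to 6 with 1 library removed. In the Rpl5 line the difference was -1.14 for Vcam1 and -1.09 for Timd4, which had too few reads for a test in Kit+ cells alone. There 22.6% of all genes were lower and 25.8% higher, and the count ran from 0 to 3.

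The single VavCre Rpl5flox/+ Kit+ polysome library, which entered no comparison, lay above the highest of the 3 Rpl5flox/+ Kit+ polysome libraries for 5 genes. It had 356.1 normalized counts of C1qa against at most 153.4, 149.1 of C1qb against 64.58, 275.4 of Vcam1 against 52.47, 76.61 of Axl against 48.44 and 273.3 of Cd5l against 234.0. With 1 library this has no replicate check.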

How the results depend on the processing

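Counts below are macrophage genes past the threshold, with those that passed the filter through 1 group alone, and the cause of each shift was not tested. Of values past it on all libraries, 769 alternatives kept side and direction, 162 fell below it and 4 turned, and of the others 65 moved past it and 5 turned and passed. Leaving out 1 library gave 1 to 2 for VavCre Rpl5flox/+ and 1 to 2 for VavCre Rps19flox/+ in Kit+ cytoplasm, 0 to 2 and 5 to 9 in Ter119+ cytoplasm, 0 to 1 for VavCre Rps19flox/+ Kit+ polysomes, 0 to 0 and 0 to 1 for the Rpl5 and Rps19 lines in Ter119+ polysomes, 1 to 3 and 0 to 5 for the difference between lines in Kit+ and Ter119+ cells, 9 to 9 and 4 to 7 for Ter119+ against Kit+ cytoplasm and polysomes, 0 to 3 and 2 to 6 for the difference between cell types in the Rpl5 and Rps19 lines, and 2 to 3 and 0 to 0 for polysome against cytoplasm in Kit+ and Ter119+ cells. With the replicate number as a block, VavCre Rpl5flox/+ Ter119+ cytoplasm gave 3, VavCre Rps19flox/+ Kit+ polysomes 1, the line difference in Ter119+ cells 5 and Ter119+ against Kit+ polysomes 4, and the calls it added elsewhere were Mrc1 and Timd4 (VavCre Rps19flox/+ Ter119+), Cd5l (line difference, Kit+), Adgre1 (cell type difference, Rpl5) and Vcam1 (cell type difference, Rps19). With no filter, VavCre Rps19flox/+ Kit+ cytoplasm gave 1, VavCre Rpl5flox/+ Ter119+ cytoplasm 0, VavCre Rps19flox/+ Kit+ polysomes 2, the line differences 1 (Kit+) and 0 (Ter119+), and Ter119+ polysome against cytoplasm 0. With a mean of at least 50, the count was 1 for VavCre Rps19flox/+ Kit+ cytoplasm, 1 for the Kit+ line difference and 0 for Kit+ polysome against cytoplasm. On log2 of the normalized count plus 1, Ter119+ against Kit+ polysomes gave 4 and Ter119+ polysome against cytoplasm 0. Without libraries under 2 M reads, VavCre Rps19flox/+ Ter119+ polysomes gave 1 and Kit+ polysome against cytoplasm 1. With libraries set to 1 median, VavCre Rpl5flox/+ Ter119+ cytoplasm gave 2, the Ter119+ line difference 1 and Ter119+ polysome against cytoplasm 1, which was higher.

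Voom and both RPM scales were chosen after seeing the data, and 2 edgeR settings were not run because the deposited unit is log2. Voom gave 0 for VavCre Rpl5flox/+ Ter119+ cytoplasm, 1 for VavCre Rps19flox/+ Ter119+ polysomes, 1 and 3 for the cell type difference in the Rpl5 and Rps19 lines, and 1 and 0 for polysome against cytoplasm in Kit+ and Ter119+ cells. RPM gave 6 higher for VavCre Rpl5flox/+ Ter119+ cytoplasm, 8 for the Ter119+ line difference, 4 and 3 for Ter119+ against Kit+ cytoplasm and polysomes, and 0 and 2 for the cell type difference in the Rpl5 and Rps19 lines. Outside the globins the counts were 0, 7, 4 (polysomes), 0 and 3, and 0 for Ter119+ polysome against cytoplasm. On RPM, the VavCre Rpl5flox/+ Ter119+ change was 1.24 for C1qa, 1.14 for C1qb, 1.25 for C1qc, 1.11 for Vcam1, 0.39 for Cd5l and 0.86 for Adgre1, Ter119+ against Kit+ was -0.11 for Vcam1 and -0.73 for Mrc1, and the Rpl5 cell type difference was 0.13 for Vcam1. The share of higher among all calls was 54.0% for VavCre Rpl5flox/+ Ter119+ cytoplasm and 92.4% on RPM, 48.4% and 87.7% for VavCre Rps19flox/+, and 45.6% and 6.5% for Ter119+ against Kit+. All genes called ran from 2 to 673 around 85 for VavCre Rps19flox/+ Ter119+ polysomes, 362 to 2517 around 1041 for its Kit+ polysomes, 423 to 2407 around 1406 for VavCre Rpl5flox/+ Ter119+ polysomes, 1759 to 3394 around 2817 for VavCre Rps19flox/+ Ter119+ cytoplasm, 723 to 1766 around 1353 for the Rps19 cell type difference, 1590 to 4863 around 2823 for Ter119+ polysome against cytoplasm, and up to 8121 around 5332 for the Rpl5 cell type difference. Of the polysome libraries, 4 lay under 2 M reads.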
